A study of Mus musculus with 22 samples.

Results

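The AP-1 subunits described here are 10 genes, Fos, Fosb, Fosl1, Fosl2, Jun, Junb, Jund, Atf3, Batf and Maff, taken by gene symbol from a table of 16059 genes. All 10 were found, and all 10 passed the filter on low counts that kept 12213 genes. RNA was measured in mouse bone marrow-derived macrophages (BMDMs) of the C57/BL6 strain, cells grown from bone marrow for 7 days in medium with supernatant of L929 cells, a source of macrophage growth factor, and then treated for 3 h. The RNA groups, with 2 libraries each, were LPS+LA (100 ng/ml lipopolysaccharide with 10 mM L-(+)-lactic acid), LPS+HCl (100 ng/ml LPS at low pH set with hydrochloric acid, for which the labels give pH 6.5 as an example), LPS (100 ng/ml), LA (lactic acid alone, at a dose that the labels do not state) and untreated control cells. Open chromatin was measured by ATAC-seq, which reads where a transposase can cut the DNA, in 3 samples each of LPS+LA, LPS, LA and control, with 50000 cells per sample and no LPS+HCl arm. The labels do not say whether samples of one group were grown separately or from different animals, and the p-values cover the spread between these samples alone, technical or not.

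AP-1 is a dimer of proteins that share a basic leucine zipper (bZIP), the domain that pairs the partners and touches the DNA. Fos proteins pair with Jun proteins and do not form stable dimers with each other, whereas Jun proteins can also pair among themselves. Fos, Fosb, Jun and Junb are immediate early genes, transcribed within minutes of a stimulus through factors already present in the cell, and their RNAs are short-lived. Atf3 is a stress-induced bZIP factor that restrains cytokine genes in macrophages, Batf pairs with Jun proteins and works with IRF factors, and Maff is a small Maf protein that lacks the activation domain of the large Maf factors. LPS, a cell-wall component of Gram-negative bacteria, is sensed by TLR4 and activates both NF-kappa B and MAP kinases, which lie upstream of AP-1.

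RNA library totals ran from 18668666 to 20219895 counts. The 10 macrophage markers summed to 23014 to 30017 CPM (counts scaled by library size) in the 10 libraries, while B cell, T cell, neutrophil and fibroblast marker lists each stayed at or below 4.76 CPM. Summed neuron and glia markers ran from 33.97 to 100.5 CPM and were highest in LPS+HCl replicate 2 (100.5 CPM) and control replicate 1 (95.3 CPM), each with 17 of 17 markers above 0. CPM here are scaled by TMM, which sets the bulk of genes to no change, with factors from 0.759 in an LPS library to 1.27 in a control library. With library totals as the only scaling, the median log2 difference of all genes was -0.77 for LPS against control, against -0.05 with TMM, and 0.43 for LPS+LA against LPS, against 0.03 with TMM. The fold changes below are therefore relative to the bulk of genes, and members whose direction or call differs with library totals are named beside the result. In bulk RNA, fewer cells with a transcript and less transcript per cell cannot be told apart.

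Stretches of the members' promoters that hold the short form of the cyclic AMP response element (CRE), TGACG, are shown first, because this motif was the one most often found among them. The RefSeq table of GRCm38.p6 gave promoter windows, 250 bases before to 50 after a gene's start, for 9 of the 10 genes, and Fosl1 had no entry. Each line gives 30 bases, 5′ to 3′, read along the strand that holds the motif, with TGACG in capitals. The match on the other strand of the same Maff site and the match in the last of the 3 Maff windows (chr15:79348267-79348296) are not printed.
Fos, bases -129 to -125 from the start, chr12:85473749-85473778, + strand: ggggcgtagagtTGACGacagagcgcccgc
Fos, bases -66 to -62, chr12:85473812-85473841, + strand: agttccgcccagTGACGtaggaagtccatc
Fosb, bases -60 to -56, chr7:19310088-19310117, - strand: tggagttgcgggTGACGcaagcgcgggggc
Junb, bases -106 to -102, chr8:84978837-84978866, - strand: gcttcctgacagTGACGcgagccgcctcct
Atf3, bases -7 to -3, chr1:191183324-191183353, + strand: ccaatcccaggcTGACGtaatgctattaat
Batf, bases -98 to -94, chr12:85686610-85686639, + strand: tttctaacttgtTGACGtttccgcccatgt
Maff, bases -29 to -25 of its second listed start, chr15:79347479-79347508, + strand: cggctggggcggTGACGtcactgcatgact

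The short motif stood in the windows of 6 of 9 members, against 20.8% of all 32851 windows searched on both strands. Members are counted by gene and all windows singly, for each motif, so a gene with several windows had more chances to match. Maff, which had 3 windows, was the only one of the 9 with the full palindrome TGACGTCA, found in 1.79% of all windows, and a short motif inside a full one is counted in both. The kappa B motif (GGG, A or G, N, N, C or T, C or T, CC), to which NF-kappa B proteins can bind, matched in Fos, Fosb, Fosl2 and Maff, 4 of 9, against 8.46% of all windows. The AP-1 motif TGANTCA (7.81% of all windows) and the serum response element (CC, 6 bases of A or T, GG, in 1.63%) matched in 0 of 9 within these windows. Bases further upstream and variants of these letters were not searched, so these counts do not show that the genes lack such elements. A match is a description of the letters and not of binding. The 250 bases upstream of Fos (chr12:85473640-85473889, + strand), with the kappa B match and both short CRE motifs in capitals, are shown because Fos was raised by both acid treatments. The same stretch of Junb (chr8:84978749-84978998, - strand), with its short CRE motif in capitals, is shown because Junb was the most abundant member in 4 of the 5 groups.
Fos: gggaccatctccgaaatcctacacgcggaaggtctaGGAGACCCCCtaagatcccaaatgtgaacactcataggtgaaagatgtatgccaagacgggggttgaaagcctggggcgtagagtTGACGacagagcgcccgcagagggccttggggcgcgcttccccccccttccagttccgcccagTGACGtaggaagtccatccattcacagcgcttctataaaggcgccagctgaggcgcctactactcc
Junb: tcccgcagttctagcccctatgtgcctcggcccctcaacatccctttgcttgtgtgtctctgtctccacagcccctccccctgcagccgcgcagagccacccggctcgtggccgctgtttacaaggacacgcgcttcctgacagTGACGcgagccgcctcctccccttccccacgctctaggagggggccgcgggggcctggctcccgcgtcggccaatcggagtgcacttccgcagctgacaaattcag

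At 3 h, the only time measured, the 4 Fos-family genes were raised by lactic acid with or without LPS and by HCl with LPS. LPS alone lowered Fos, Fosb and Fosl2 at that time, and earlier levels were not measured. Fos had 235 and 195 CPM in LPS+LA, 193 and 184 CPM in LPS+HCl, 22.7 and 25.4 CPM in LPS, 229 and 222 CPM in LA, and 42.3 and 43.4 CPM in control cells. All 6 acid-treated libraries lay above the 4 others, with no overlap, and the LPS libraries lay lowest. Fos was 8.93-fold higher in LPS+LA than in LPS (log2 3.16, SE 0.10, adjusted p = 5.07e-18, quasi-likelihood test of edgeR, adjusted by Benjamini-Hochberg over all genes). In LPS+HCl against LPS the difference was 2.97 on the log2 scale (SE 0.10, adjusted p = 1.33e-16), and in LA against control it was 2.39 (SE 0.09, adjusted p = 1.06e-15). LPS alone lowered Fos by a log2 difference of -0.83 against control (adjusted p = 8.58e-08). Between the acids, LPS+LA against LPS+HCl gave 0.19 (SE 0.08, adjusted p = 0.0687), which was called without LPS+LA replicate 2 (0.32), with no filter on low counts (0.20) and with library totals (0.36).

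Fosb, which encodes a Fos protein and a truncated form made by splicing, varied the most in relative terms among the 10 genes, down to 0 counts in 1 LPS library. It had 22.1 and 21.4 CPM in LPS+LA, 6.56 and 6.63 CPM in LPS+HCl, 0 and 0.264 CPM in LPS, 73.5 and 62.1 CPM in LA, and 1.25 and 1.88 CPM in control cells. The LPS values were 0 and 4 counts, so folds against LPS rest on 4 counts in all. The ratio of summed, scaled counts was 166 for LPS+LA over LPS (exact 95% interval for counting error only, 64.6 to 611), 50.4 for LPS+HCl over LPS (19.4 to 187) and 0.0834 for LPS over control (0.0222 to 0.222). The fitted log2 differences were 7.31 for LPS+LA against LPS (adjusted p = 1.69e-14), 5.59 for LPS+HCl against LPS (adjusted p = 3.52e-10) and -3.52 for LPS against control (adjusted p = 8.74e-06). Without LPS replicate 1, the library at 0, they were 6.34, 4.603 and -2.54, and without LPS replicate 2 they were 11.80, 10.07 and -8.01. LA against control does not use the LPS libraries and gave 5.43 (SE 0.19, adjusted p = 9.46e-16). Of the 10 genes, Fosb also had the largest gap between the acids: it was 3.29-fold higher in LPS+LA than in LPS+HCl (log2 1.72, SE 0.17, adjusted p = 1.92e-08).

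Fosl2, which encodes Fra-2, a Fos protein without the C-terminal activation domain of Fos, followed the same order at a higher level. It had 136 and 146 CPM in LPS+LA, 122 and 117 CPM in LPS+HCl, 25.1 and 26.8 CPM in LPS, 223 and 179 CPM in LA, and 33.2 and 37.6 CPM in control cells. Both LA libraries lay above all others and both LPS libraries below. The log2 differences were 2.44 for LPS+LA against LPS (SE 0.11, adjusted p = 3.71e-15), 2.20 for LPS+HCl against LPS (adjusted p = 1.53e-13), 2.51 for LA against control (SE 0.10, adjusted p = 8.81e-15) and -0.45 for LPS against control (adjusted p = 9.73e-04). LPS+LA exceeded LPS+HCl by 0.24 (adjusted p = 0.0459), a call that was lost without any 1 of the LPS+LA or LPS+HCl libraries (0.18 to 0.30), without the 2 libraries richest in neuron and glia markers (0.21), and with median-ratio factors or DESeq2 (0.22).

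Fosl1, which encodes Fra-1, stayed at or below 5.89 CPM in all libraries. It had 3.75 and 3.37 CPM in LPS+LA, 2.23 and 3.54 CPM in LPS+HCl, 1.10 and 0.793 CPM in LPS, 5.01 and 5.89 CPM in LA, and 1.17 and 1.04 CPM in control cells. The LPS and control libraries overlapped, and so did those of LPS+LA and LPS+HCl. Fosl1 was higher by 1.90 (log2) in LPS+LA than in LPS (adjusted p = 1.26e-04), by 1.60 in LPS+HCl than in LPS (adjusted p = 0.00166) and by 2.29 in LA than in control cells (adjusted p = 9.96e-06). Without LPS+HCl replicate 2 and control replicate 1 the LPS+HCl difference was 1.22 and no longer passed. LPS+LA against LPS+HCl gave 0.30 (SE 0.32, adjusted p = 0.478). LPS against control gave -0.22 (adjusted p = 0.649), and with library totals as the scaling it was called, at -0.94.

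**Figure D1:**
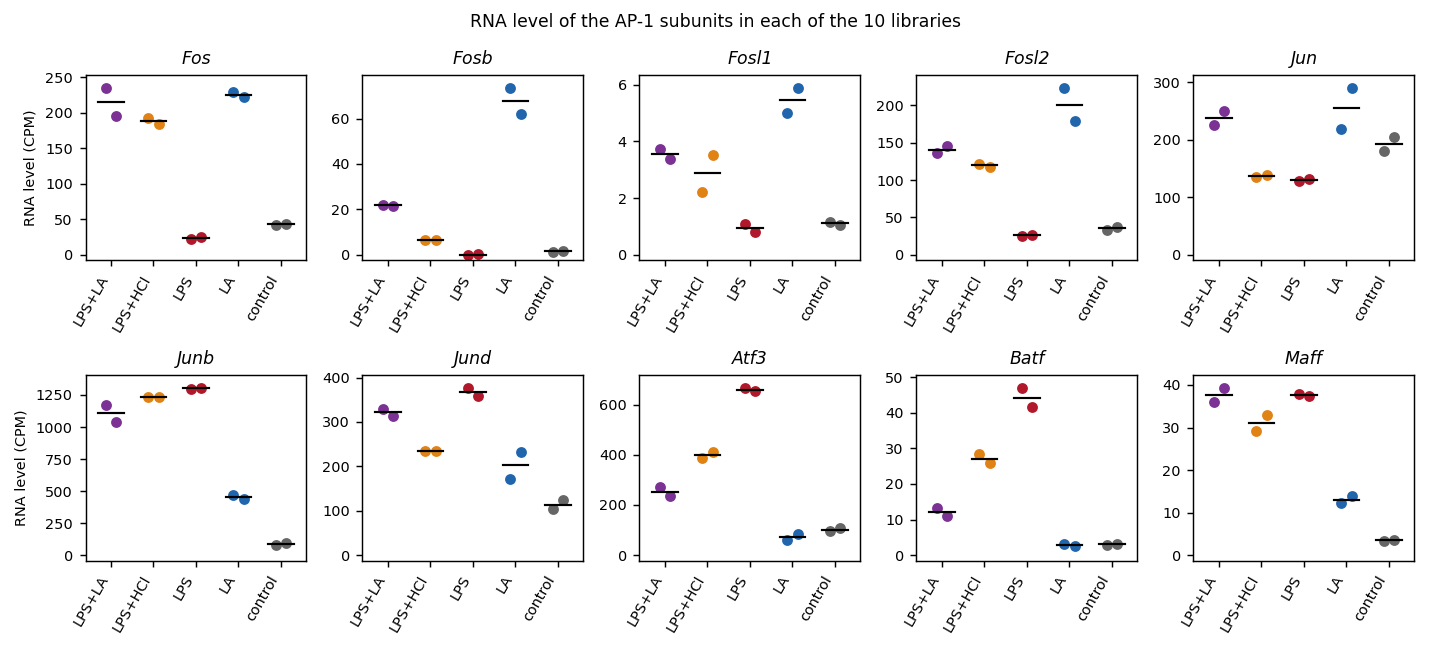
RNA level in TMM-scaled CPM (vertical axes, linear, each gene on its own scale) of the 10 AP-1 subunits in each library (points) by group, with the line at the group mean of 2 libraries. Fos, Fosb, Fosl1 and Fosl2 are high in LPS+LA, LPS+HCl and LA, while Atf3 and Batf are highest in LPS, at 660 and 44.3 CPM on average.

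The 3 Jun-family genes did not move together. Jun, the c-Jun protein and a main partner of Fos, had 226.5 and 250.1 CPM in LPS+LA, 135 and 138 CPM in LPS+HCl, 129 and 131 CPM in LPS, 219 and 290.3 CPM in LA, and 181 and 205 CPM in control cells. The lactic acid libraries lay above control, and those with LPS but without lactic acid lay below it. Jun was higher in LPS+LA than in LPS by 0.87 (log2, adjusted p = 1.44e-06) and than in LPS+HCl by 0.80 (adjusted p = 7.92e-06), while LPS+HCl against LPS gave 0.07 (adjusted p = 0.648), or 0.31 and a call with library totals. LPS lowered it by a log2 difference of -0.57 against control (adjusted p = 1.36e-04). LA against control gave 0.40 (adjusted p = 0.00521), and this call was lost without LA replicate 2 (0.18), without control replicate 1 (0.31) and without the 2 libraries richest in neuron and glia markers (0.31).

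Junb, an immediate early Jun protein that is a weaker activator than Jun, was raised against control by LPS and by LA. It had 1170.2 and 1043 CPM in LPS+LA, 1234 and 1237.5 CPM in LPS+HCl, 1299.8 and 1303 CPM in LPS, 471 and 437 CPM in LA, and 81.9 and 96.7 CPM in control cells. All treated libraries lay above both controls, and those with LPS above those with LA alone. Against control the rise was 14.6-fold in LPS (log2 3.86, SE 0.08, adjusted p = 2.7e-21) and 5.08-fold in LA (log2 2.35, SE 0.08, adjusted p = 4.61e-16). LPS+LA against LPS gave -0.23 (adjusted p = 0.00928). That call was lost without LPS+LA replicate 2 (-0.16), without LPS replicate 1 (-0.23) or without LPS replicate 2 (-0.23). With library totals as the scaling, Junb was instead called higher in LPS+LA than in LPS, at 0.17. LPS+LA against LPS+HCl gave -0.16 (adjusted p = 0.0902) and LPS+HCl against LPS gave -0.07 (adjusted p = 0.459), with signs that turned to 0.0059 and 0.16 with library totals. Junb in LPS+LA against LPS+HCl was called lower with DESeq2 (-0.18) and without either control library (-0.16 in each case).

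Jund, the Jun protein that is usually present in resting cells, had 329 and 314 CPM in LPS+LA, 235 and 233 CPM in LPS+HCl, 376 and 359 CPM in LPS, 172 and 233 CPM in LA, and 103 and 124 CPM in control cells. The LPS libraries lay highest, those of LPS+LA next, and the control libraries lowest. It was raised against control by LPS (log2 1.69, adjusted p = 1.4e-08) and by LA (0.83, adjusted p = 8.8e-05). With LPS, the acids differed: LPS+HCl against LPS gave -0.65 (adjusted p = 5.14e-04), LPS+LA against LPS gave -0.19 (adjusted p = 0.177, and 0.21 with library totals), and LPS+LA exceeded LPS+HCl by 0.46 (adjusted p = 0.0064). Jund in LPS+LA against LPS was called lower with no filter on low counts and without either LA library (-0.19 in each case).

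Atf3 and Batf were raised by LPS and held lower by either acid. Atf3 had 271 and 235 CPM in LPS+LA, 389 and 412 CPM in LPS+HCl, 666 and 653 CPM in LPS, 61.5 and 82.9 CPM in LA, and 94.9 and 109 CPM in control cells. The 5 groups did not overlap. LPS raised Atf3 6.47-fold against control (log2 2.69, SE 0.12, adjusted p = 4.26e-11). Against LPS it was lower in LPS+LA (log2 -1.38, SE 0.11, adjusted p = 8.99e-08) and in LPS+HCl (-0.72, adjusted p = 1.34e-04), and it was lower in LPS+LA than in LPS+HCl (-0.66, adjusted p = 3.11e-04). LA against control gave -0.50 (adjusted p = 0.00428), which was lost without control replicate 2 (-0.39) and was -0.30, still past the threshold, without LA replicate 1.

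Batf had 13.1 and 11.01 CPM in LPS+LA, 28.3 and 26.0 CPM in LPS+HCl, 46.9 and 41.6 CPM in LPS, 3.08 and 2.68 CPM in LA, and 2.95 and 3.25 CPM in control cells. The LA and control libraries overlapped, and the 3 groups with LPS were ordered LPS+LA, LPS+HCl, LPS from low to high with no overlap. LPS raised Batf 14.3-fold against control (log2 3.83, SE 0.16, adjusted p = 2.43e-16), and LA against control gave -0.11 (adjusted p = 0.712). Against LPS the difference was -1.88 in LPS+LA (SE 0.14, adjusted p = 3.12e-11) and -0.71 in LPS+HCl (adjusted p = 1.08e-04). LPS+LA lay below LPS+HCl by a log2 difference of -1.17 (adjusted p = 2.94e-07).

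Maff was raised by LPS and by LA, and its differences between the 3 groups with LPS did not pass the test with TMM. It had 36.1 and 39.2 CPM in LPS+LA, 29.3 and 32.9 CPM in LPS+HCl, 37.8 and 37.5 CPM in LPS, 12.3 and 13.8 CPM in LA, and 3.40 and 3.61 CPM in control cells. The LPS libraries lay between those of LPS+LA. Against control the log2 difference was 3.42 in LPS (adjusted p = 2.22e-16) and 1.89 in LA (SE 0.15, adjusted p = 6.85e-10). LPS+LA against LPS gave 0.0014 (SE 0.11, adjusted p = 1), and it was called higher with library totals (0.40). LPS+HCl against LPS gave -0.28 (SE 0.11, adjusted p = 0.0591), which was called with median-ratio factors (-0.29) and without either LA library (-0.28 in each case). The difference between LPS+LA and LPS+HCl was 0.28 (SE 0.11, adjusted p = 0.053), which was called with library totals (0.44) and without either LA library (0.28 in each case).

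Counted over the 10 genes, 5 were called higher and 3 lower in LPS+LA against LPS, a comparison in which 58.9% of all genes tested were called (29.2% higher and 29.7% lower). For LPS+HCl against LPS, which shares the LPS libraries, 4 were higher and 3 lower, against 38.8% of all genes (18.0% higher and 20.8% lower). The 4 Fos-family genes were higher in both, and Atf3 and Batf were lower in both. In LA against control 8 of 10 were higher and 1 lower, against 38.3% of all genes (20.4% higher and 17.9% lower). In LPS against control 5 were higher and 4 lower, against 64.8% of all genes (32.4% in each direction), so a call as such was common there. LPS+LA against LPS+HCl called 4 higher (Fosb, Fosl2, Jun and Jund) and 2 lower (Atf3 and Batf), against 40.9% of all genes (18.4% higher and 22.5% lower). In LPS+LA against LA, 5 were higher (Junb, Jund, Atf3, Batf and Maff) and 2 lower (Fosb at -1.64 and Fosl2 at -0.51), against 30.5% of all genes (15.9% higher and 14.6% lower). Fos (-0.07, adjusted p = 0.594), Jun (-0.10, adjusted p = 0.541) and Fosl1 (-0.61, adjusted p = 0.142) were not called there, but with library totals they were called lower, at -0.28, -0.31 and -0.82. With library totals as the scaling, the 10 genes split into 7 higher and 2 lower for LPS+LA against LPS, where all genes split into 6208 and 2032. For LPS+HCl against LPS the members gave 5 and 3 and all genes 4535 and 1310. For LPS+LA against LPS+HCl the members gave 6 and 2 (Fos and Maff being called too) and all genes 3947 and 1893. For LPS against control the members gave 5 and 5 and all genes 1761 and 8289, and for LPS+LA against LA they gave 5 and 5 and all genes 1294 and 4260. For LA against control the members kept 8 and 1, and all genes gave 1719 and 3070.

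**Figure D2:**
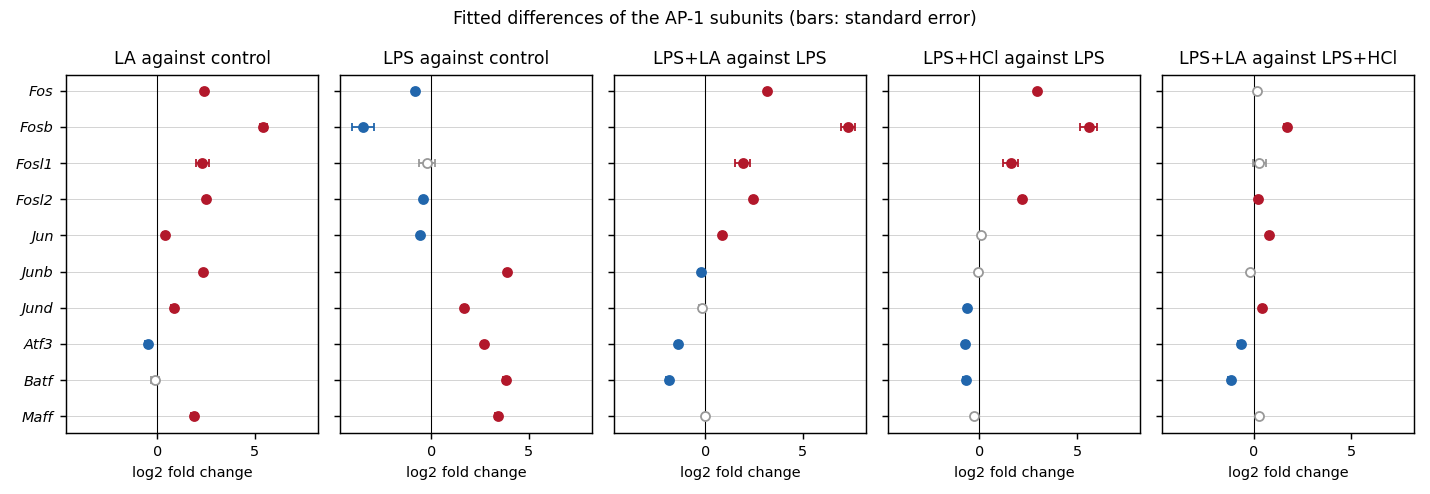
Fitted log2 fold changes (horizontal axes) of the 10 AP-1 subunits in the comparisons named above each panel, with points at the estimate (filled where called, open where not) and bars at 1 standard error. The 4 Fos-family genes lie right of 0 in LA against control, LPS+LA against LPS and LPS+HCl against LPS, while Atf3 and Batf lie left of 0 in both comparisons against LPS.

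The effect of lactic acid was set against itself with and without LPS by the interaction term, the LPS+LA minus LPS difference minus the LA minus control difference. The labels give no dose for LA alone. In this term, and in LPS+LA against LA, a difference in dose therefore cannot be told apart from the presence of LPS. Of the 10 genes, 3 had a positive and 5 a negative interaction, against 44.3% of all genes called (20.4% positive and 23.9% negative). With library totals the members gave 4 positive and 4 negative, and all genes 5917 and 1294, against 2492 and 2917 with TMM. Junb had the largest negative value, -2.58 (adjusted p = 1.18e-14), with LA effects of -0.23 with LPS and 2.35 without it. Maff gave -1.89 (adjusted p = 1.11e-08), Batf -1.77 (adjusted p = 1.92e-06), Jund -1.02 (adjusted p = 1.68e-04) and Atf3 -0.88 (adjusted p = 4.98e-04), and the call for Atf3 was lost with library totals (-0.37). Fos had a larger LA effect with LPS than without it, by 0.76 (adjusted p = 3.03e-05). Fosb gave 1.88 (adjusted p = 0.0256) and lost its call without LPS replicate 1 (0.91) or control replicate 2 (1.55), with 6.38 without LPS replicate 2. Jun gave 0.47 (adjusted p = 0.0146) and lost its call without control replicate 2 (0.38) or LPS+LA replicate 2 (0.40), and its value was 0.28 without LA replicate 1. Fosl1 (-0.39, adjusted p = 0.579) and Fosl2 (-0.07, adjusted p = 0.754) gave no call, and with library totals their values were 0.11 and 0.45, the value for Fosl2 then being called.

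Levels of different genes were compared as TPM, the authors' values per gene length. Junb was the most abundant of the 10 in LPS+LA (1183 and 1076 TPM), LPS+HCl (1180.2 and 1220.2 TPM), LPS (1079.8 and 1094 TPM) and LA (560.2 and 512 TPM). In control cells Jun ranked first (145 and 159.7 TPM), and Atf3 (124 and 139 TPM) and Junb (116 and 133 TPM) overlapped behind it. Fos had rank 4 in LPS+LA (208 and 176 TPM, overlapping Jund at 209 and 204 TPM), rank 3 in LPS+HCl (161 and 159 TPM), rank 7 in LPS (16.5 and 18.7 TPM), rank 2 in LA (238 and 227 TPM) and rank 5 in control cells (52.2 and 52.3 TPM). Batf had rank 4 in LPS, at 83.8 and 75.0 TPM, ahead of Jun at 60.5 and 62.3 TPM. Fosb or Fosl1 was last in every group, at 4.10 and 3.77 TPM for Fosl1 in LPS+LA and at 0 and 0.11 TPM for Fosb in LPS. The other neighbours whose libraries overlapped were Jun and Jund, Atf3 and Fosl2, and Batf and Fosl1 in LA, and Fosb and Fosl1 in LPS+HCl.

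The makeup of the pool of AP-1 transcripts differed between groups. The Fos family held 12.3% ± 0.326 of the summed TPM of the 10 genes in LPS+LA, 9.76% ± 0.298 in LPS+HCl, 1.26% ± 0.089 in LPS, 26.8% ± 2.25 in LA and 11.8% ± 0.748 in control cells (SD, n = 2 each). Its share in LPS lay below every other library, and its share in LA above. Atf3, Batf and Maff together held 14.97% ± 0.169 in LPS+LA, 21.6% ± 0.562 in LPS+HCl, 31.2% ± 0.423 in LPS, 7.73% ± 1.12 in LA and 24.6% ± 0.068 in control cells (SD, n = 2 each). The Jun family stayed between 62.9% and 73.0% in all 10 libraries, and Junb, counted in that share, made up 55.7% ± 0.791 in LPS+LA, 58.1% ± 0.225 in LPS+HCl, 54.7% ± 0.517 in LPS, 41.0% ± 3.23 in LA and 21.0% ± 0.455 of the sum of the 10 genes in control cells (SD, n = 2 each). The summed TPM was 2103 and 1952 in LPS+LA, 2026 and 2106 in LPS+HCl, 1986 and 1986 in LPS, 1294 and 1322 in LA, and 559 and 625 in control cells. These sums are not scaled by TMM, so they are not read as differences between groups. Junb, for example, averaged 1087 TPM in LPS and 1129 TPM in LPS+LA, but 1301.5 CPM in LPS and 1106 CPM in LPS+LA. The shares were not tested.

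**Figure D3:**
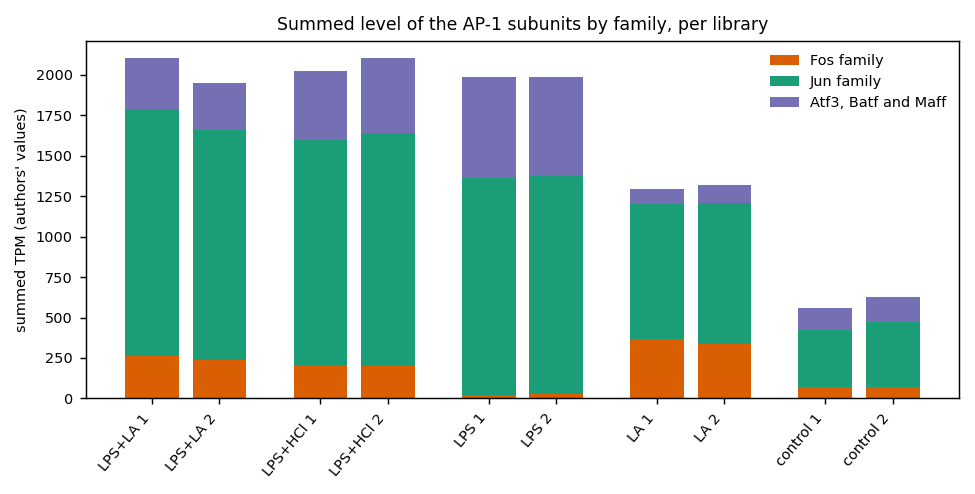
Summed TPM, the authors' values per gene length (vertical axis from 0), of the 10 AP-1 subunits in each library, stacked by Fos family, Jun family and the group of Atf3, Batf and Maff. Summed levels are 1952 to 2106 TPM in the 6 libraries with LPS, and the Fos family is thinnest in LPS at 1.26% of the sum. TPM are not scaled by TMM, so bar heights are not compared between groups.

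Genes around the AP-1 subunits were counted in lists of textbook roles. Of 17 tested other immediate early genes, 15 were higher and 1 lower in LA against control (94.1% called, against 38.3% of all genes), with a median log2 difference of 1.5 against 0.0009 for all genes. The nuclear receptor Nr4a1 had 180.4 and 156.5 CPM in LA and 3.44 and 3.33 CPM in control cells (log2 5.64, SE 0.13, adjusted p = 8.17e-20). Nr4a2 rose too (log2 3.84, adjusted p = 2.58e-13). Of the same 17, in LPS+LA against LPS, 5 were higher and 7 lower (7 and 3 with library totals), 70.6% against 58.9% of all genes. Nr4a1 was among the higher ones, with 78.2 and 87.9 CPM in LPS+LA and 1.94 and 1.59 CPM in LPS (log2 5.55, adjusted p = 1.06e-18), as was the neuronal activity gene Arc (log2 3.83, adjusted p = 2.28e-04). In LPS against control, 11 were higher and 5 lower (94.1% called, against 64.8% of all genes), led by Nr4a3 (log2 8.24, adjusted p = 2.65e-21) and Zfp36, which encodes a protein that destabilises cytokine mRNAs (log2 4.47, adjusted p = 2.85e-23).

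Textbook AP-1 target genes were mostly lower in LPS+LA than in LPS. Of 18 tested, 4 were higher and 11 lower in LPS+LA than in LPS (83.3% called, against 58.9% of all genes), with a median log2 difference of -0.85 against 0.03 for all genes (6 higher and 10 lower, median -0.45, with library totals). The cytokine genes Csf2 and Il6 were the 2 with the largest falls: Csf2 had 0.321 and 0.263 CPM in LPS+LA and 49.1 and 43.4 CPM in LPS (log2 -7.28, adjusted p = 8.98e-16), and Il6 had 9.63 and 8.32 CPM in LPS+LA and 855 and 800.5 CPM in LPS (log2 -6.53, adjusted p = 2.4e-21). Neither Il6 nor Csf2 had a count in control cells. In LA against control, 8 of 18 were higher and 0 lower (8 and 1 with median-ratio factors, 6 and 1 with library totals), 44.4% against 38.3% of all genes, among them Ptgs2, the prostaglandin-forming cyclooxygenase-2 (log2 3.81, adjusted p = 4.11e-12). In LPS against control 13 were higher and 4 lower (94.4% called, against 64.8% of all genes).

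Among 24 tested other bZIP factors, 8 were higher and 13 lower in LPS+LA against LPS (9 and 8 with library totals), so that 87.5% were called, against 58.9% of all genes. The split was 6 higher and 7 lower in LA against control (4 and 9 with library totals), 54.2% against 38.3% of all genes. It was 12 higher and 6 lower in LPS against control (5 and 12 with library totals), 75.0% against 64.8% of all genes. Batf2, a relative of Batf, had 17.1 and 18.7 CPM in LPS+LA, 219 and 221 CPM in LPS, and 3.92 and 2.65 CPM in control cells. It rose in LPS against control (log2 6.07, adjusted p = 5.48e-22) and fell in LPS+LA against LPS (log2 -3.62, adjusted p = 1.69e-18). Jdp2, a repressor that pairs with Jun proteins, was higher in LPS than in control cells (log2 3.59, adjusted p = 2.06e-21). In LA against control Nfil3 was higher (log2 2.13, adjusted p = 1.09e-12) and Maf lower (log2 -1.49, adjusted p = 3.56e-13).

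Of 25 tested MAP kinase cascade genes, 7 were higher and 9 lower in LPS+LA against LPS (13 and 5 with library totals), so that 64.0% were called, against 58.9% of all genes. The split was 5 higher and 5 lower in LA against control (4 and 9 with library totals), 40.0% against 38.3% of all genes. It was 12 higher and 6 lower in LPS against control (6 and 15 with library totals), 72.0% against 64.8% of all genes. Map3k8, the kinase that links TLR4 to ERK, rose with LPS (log2 4.49, adjusted p = 8.99e-21). Mapkapk2, a p38 substrate kinase, rose with LPS against control (log2 3.35, adjusted p = 1.41e-21) and was lower in LPS+LA than in LPS (log2 -1.38, adjusted p = 1.74e-14), while Mapk7, the kinase ERK5, was higher in LPS+LA than in LPS (log2 1.47, adjusted p = 3.39e-08). Mapkapk3 (log2 1.05) and Map2k3 (log2 0.75) were higher in LA than in control cells. Of 13 factors that bind Fos and Jun promoters, 8 were higher and 3 lower in LPS+LA against LPS (84.6% called, against 58.9% of all genes, and 10 and 2 with library totals), led by the ternary complex factor Elk3 (log2 2.54, adjusted p = 1.94e-15) and Mef2c (log2 2.32, adjusted p = 1.16e-12). In LA against control 5 were higher, led by Mef2d (log2 0.78), and 2 lower, led by the coactivator Mrtfb (log2 -0.49), so that 53.8% were called, against 38.3% of all genes. In LPS against control 3 were higher, among them Stat3 (log2 2.24), and 9 lower (2 and 10 with library totals), 92.3% against 64.8% of all genes.

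For each AP-1 subunit, the gene whose log2 CPM followed it most closely over the 10 libraries was sought among 8931 others, as a description, since the libraries share treatments. The closest were the co-chaperone Bag3 for Fos (Pearson's r = 0.994), the adaptor Sh2b2 for Fosb (r = 0.985), Castor1 for Fosl1 (r = 0.990) and Zbtb7b for Fosl2 (r = 0.986). For the Jun family they were Tubg1 with Jun (r = 0.983), Skil with Junb (r = 0.994) and Csf2ra with Jund (r = 0.992). The chemokine gene Ccl3 was closest to Atf3 (r = 0.995), Shisa3 to Batf (r = 0.999) and the nucleotide receptor gene P2ry2 to Maff (r = 0.994). Bag3 averaged 194 CPM in LPS+LA, 176 CPM in LPS+HCl, 71.4 CPM in LPS, 207 CPM in LA and 95.3 CPM in control cells. Shisa3 averaged 4.94 CPM in LPS+LA, 41.2 CPM in LPS+HCl, 157 CPM in LPS, 0 CPM in LA and 0.0403 CPM in control cells.

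Open chromatin near the genes was described from the authors' peak lists, called per sample, with 76680 to 100667 peaks. Peaks of the 12 samples that touched by at least 1 bp were merged into 127890 sites, of which 239 lay within 50 kb of the bounds of the 10 genes. Of these, 134 (56.1%) had a peak in all 12 samples, against 43.9% of all sites. Per the file headers, LPS+LA and LA samples were sequenced in lane 6 and LPS and control samples in lane 5. In LPS+LA against LPS and in LA against control, lactic acid and lane therefore cannot be told apart, while LPS against control and LPS+LA against LA were each made within 1 lane. The lists give no reads per site, so DNA at a site with no called peak may still have been cut.

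The promoter windows of Fos, Fosb, Jun, Junb, Atf3 and Batf held a peak in 12 of 12 samples, and so did both later windows of Maff. The authors' peak scores there ranked at the 76.1 to 86.4 percentile of each list for Fos, 75.6 to 85.7 for Fosb, 95.2 to 98.4 for Jun, 75.6 to 84.1 for Junb, 94.5 to 97.3 for Atf3 and 38.4 to 60.2 for Batf. Fosb, whose RNA had 0 and 4 counts in LPS, thus had a promoter peak in every LPS sample. The window of Fosl2 had a peak in 4 samples, at or below the 7.38 percentile, while a site just upstream of it, centred at -932 bp (chr5:32134932-32136149), had a peak in all 12 samples, with group medians at the 86.6 to 91.6 percentile. The window of Jund had a peak in 0 of 12 samples, with a site centred at 1241 bp inside the gene in all 12. Fosl1, which had no window, had a site over its gene (chr19:5447435-5448475) in all 12.

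A site was called gained where 3 of 3 samples of one group and 0 of 3 of the other had a peak, and lost where the reverse held, with no test. In LPS against control, 13 of the 239 sites were gained (5.44%, against 8.27% of all sites) and 7 lost (2.93%, against 2.44%). In LPS+LA against LA, 11 were gained (4.6%, against 6.01%) and 4 lost (1.67%, against 0.483%). LPS+LA against LPS gave 5 gained (2.09%, against 2.24%) and 4 lost (1.67%, against 2.29%), and LA against control gave 4 gained (1.67%, against 1.53%) and 8 lost (3.35%, against 2.38%). With 4 to 13 sites per count, the shares stand beside those of all sites as a description. Leaving out a sample loosens the rule, since fewer samples must have or lack a peak. Such a count can therefore stay or rise but not fall. The count for LPS+LA against LPS, 9 in all, became 17 without LPS+LA sample 1 and 16 without LPS+LA sample 2. Sample 1 had 85571 peaks, against 99435 and 99416 in the other LPS+LA samples. The count for LPS+LA against LA, 15 in all, became 27 without LPS+LA sample 1.

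Batf had 3 of the 13 sites gained with LPS. Fos, Jun and Maff had 2 each, Fosl1, Fosl2, Junb and Jund 1 each, and Fosb and Atf3 had 0. Those of Batf were centred at -19990 bp (chr12:85666460-85666999), -6584 bp (chr12:85679776-85680496) and 16912 bp (chr12:85703442-85703821) from its start, where negative values lie upstream. The LPS samples had peaks at all 3 sites in 3 of 3, and the LA and control samples in 0 of 3. In LPS+LA, sequenced in another lane than LPS, the peaks stood in 3, 2 and 1 of 3 samples, at the same 3 sites. Sample 1 of LPS+LA, with the fewest peaks of its group, had a peak at 11 of the sites near Batf, against 18 and 16 in the other LPS+LA samples. One more site of Batf, at 18098 bp, had peaks in 0 of 3 LPS+LA, 3 of 3 LPS, 0 of 3 LA and 1 of 3 control samples.

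Near Fos, sites at 16674 bp (chr12:85490389-85490739) and 42164 bp (chr12:85515879-85516228) had peaks in all LPS+LA and LPS samples and in no LA or control sample, although Fos RNA was lowest in LPS. A site at -43360 bp (chr12:85430369-85430692) had peaks in 3 of 3 LPS+LA samples and in no other. These peaks were weak, with a median score at the 10.1 percentile of their lists. Near Atf3, a site at 775 bp (chr1:191182364-191182752), inside the gene, had peaks in 3 of 3 LA and 3 of 3 control samples and in no LPS+LA or LPS sample. Another in the gene, at 2716 bp (chr1:191180387-191180847), had peaks in 3 of 3 LPS+LA, 3 of 3 LPS, 0 of 3 LA and 1 of 3 control samples.

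Among the Jun genes, a site at -42574 bp of Jun (chr4:95094512-95095079) had peaks in 3 of 3 LPS+LA, 0 of 3 LPS, 3 of 3 LA and 3 of 3 control samples. Another, at 51880 bp (chr4:95000156-95000527), showed the opposite pattern, with peaks in 3 of 3 LPS samples and in no LPS+LA, LA or control sample. In all, 2 sites near Jun were gained and 2 lost in LPS against control. Past the end of Junb, a site at 3748 bp (chr8:84974846-84975153) had peaks in 3 of 3 LPS samples and in 0 of 9 others. Sites seen only in LA, in 3 of 3 samples, lay at -2715 bp of Fosl2 (chr5:32133615-32133899) and -32176 bp of Fosb (chr7:19342073-19342370). The sites named here were chosen after their peaks were seen.

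**Figure D4:**
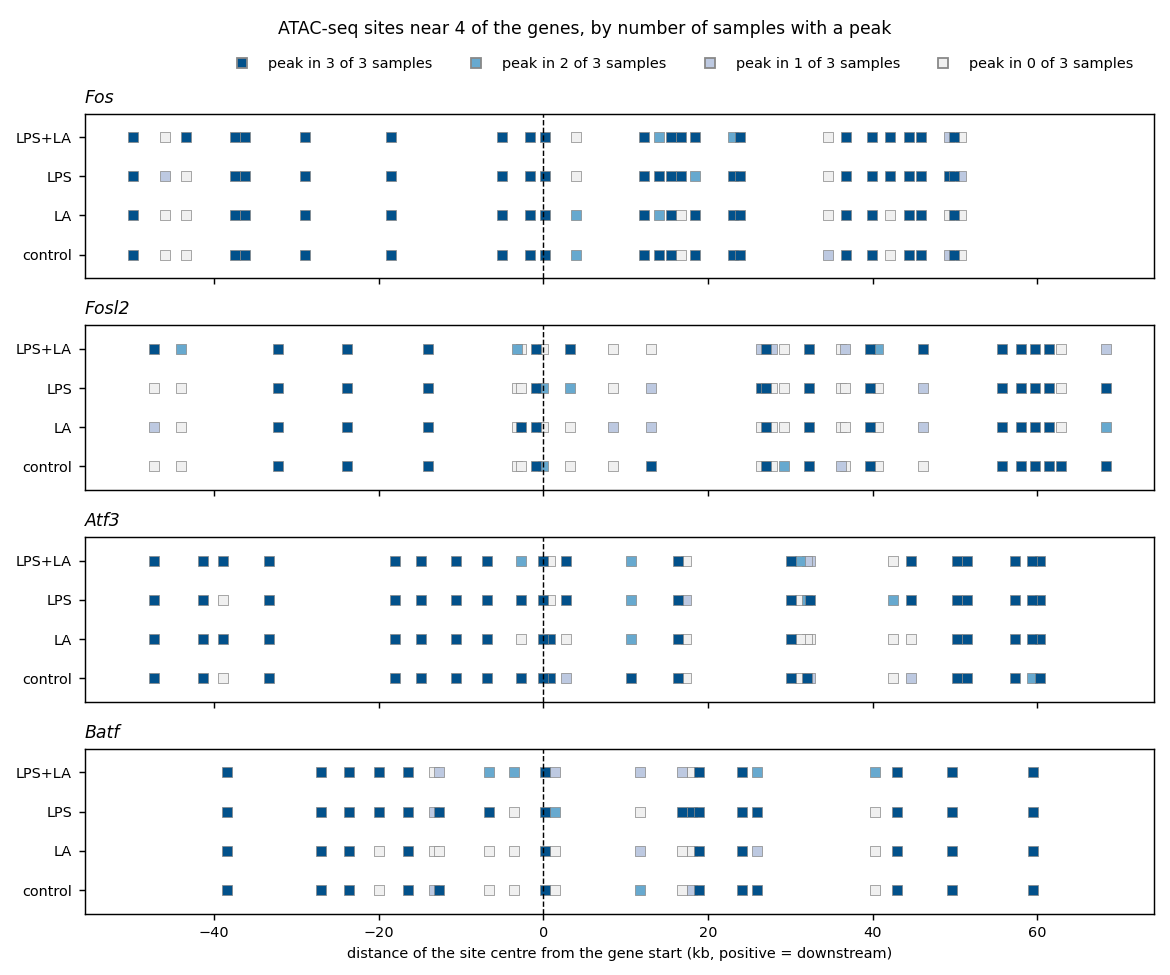
ATAC-seq sites within 50 kb of the bounds of Fos, Fosl2, Atf3 and Batf, by distance of the site's centre from the gene start (horizontal axis, kb, positive downstream), with 1 row per group and shading by the number of its 3 samples with a peak. Most sites are shaded in every row, and at Batf 3 sites have peaks in all LPS samples and in no LA or control sample.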

How the data were processed

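RNA was measured in 10 libraries and open chromatin in 12 ATAC-seq samples, grouped by their labels. The members, gene lists, marker lists and tests were chosen with earlier results of these data known. Members are described in full. From each other list the text names the 2 called genes with the largest absolute log2 difference in each of 3 comparisons (LA against control, LPS against control, LPS+LA against LPS), where a group reached 10 CPM, and for likeness the 1 gene with the highest correlation per member. Some genes that this rule selects are not reported here.

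For RNA the authors deposited 3 values per gene and library, which are expected counts, TPM and FPKM. HISAT, Bowtie2 and GRCm38.p6 are named in the submitters' processing notes, and reads were 100 bp, per the labels. Expected counts divide reads between similar genes, and 6.07% of those deposited (0 among the members) were fractional and were rounded. The deposited TPM and FPKM values keep no depth, so they were used only to compare levels between genes and for shares. RefSeq (GRCm38.p6) matched 15959 gene IDs. For ATAC-seq the authors deposited peaks per sample with a score, called with MACS2, per the file headers (2.0.10, with BWA 0.5.9, Picard and mm10, per the submitters' processing notes). The deposited score served only as a rank within a list. The counting tool, its use of strand and any shift of ATAC-seq reads were not given in the sources used here.

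Genes were kept by filterByExpr (minimum count 10, minimum total 15), scaled by TMM and fitted with edgeR 4.0.16 (glmQLFit, robust), 1 term per group over all 10 libraries. Contrasts were tested two-sided with glmQLFTest, adjusted by Benjamini-Hochberg over 12213 genes, at a threshold of 0.05. The standard error is the absolute log2 difference divided by the square root of F. The fit was tested on simulated data. Alternatives were DESeq2 1.42.0, median-ratio and total-count scaling, no filter, a replicate block, each library left out, and both libraries richest in neuron and glia markers left out. For sites they were 10 kb and 100 kb distances, peaks above the median score of their list, a minimum share of the site covered by a sample's peaks, and each sample left out.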

Additional observations from a re-analysis of the deposited data

Results flagged for a closer look

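For 8 of the 10 genes the effect of lactic acid differed between cells with and without LPS, by edgeR's test of the interaction with Benjamini-Hochberg adjustment, against 44.3% of all genes. The effect was larger with LPS for Fos (interaction 0.76 on the log2 scale, from effects of 3.16 with LPS and 2.39 without), Fosb (1.88, from 7.31 and 5.43) and Jun (0.47, from 0.87 and 0.40). It was smaller or more negative with LPS for Junb (-2.58, from -0.23 and 2.35), Jund (-1.02, from -0.19 and 0.83), Atf3 (-0.88, from -1.38 and -0.50), Batf (-1.77, from -1.88 and -0.11) and Maff (-1.89, from 0.0014 and 1.89). Without 1 library, Fosb ranged from 0.91 to 6.38 and lost its call without LPS replicate 1 or control replicate 2, and Jun lost its call without control replicate 2 or LPS+LA replicate 2. Atf3 lost its call with library totals (-0.37). The labels give no dose for LA alone, so a difference in dose cannot be told apart from the presence of LPS. With 2 RNA libraries and 3 ATAC-seq samples per group, single samples were not searched for outliers.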

How the results depend on the processing

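Over 1120 values of single members under alternatives, 1055 kept their direction and their side of the threshold, 23 gained a call, 21 lost one and 21 changed sign. The counts of members called stayed within 1.5 times in every alternative, and leaving out 1 library at a time gave 9 to 9 for LPS against control, 8 to 9 for LA against control, 7 to 9 for LPS+LA against LPS, 7 to 8 for LPS+HCl against LPS, 5 to 7 for LPS+LA against LPS+HCl, 7 to 8 for LPS+LA against LA and 6 to 8 for the interaction. With total-count scaling the sign turned for LPS+LA against LPS of Junb (0.17) and Jund (0.21), for LPS+HCl against LPS of Junb (0.16), for LPS+LA against LPS+HCl of Junb (0.0059) and for the interaction of Fosl1 (0.11) and Fosl2 (0.45), as that scaling shifts the median of all genes. The LPS+LA against LPS value of Maff, near 0, was -0.034 with median-ratio factors and with DESeq2, -0.00069 with the replicate block and -0.00075 without both libraries richest in neuron and glia markers, and -0.062 to 0.068 with 1 library left out. Left-out libraries also turned LPS+LA against LA of Fos (-0.20 to 0.061) and Jun (-0.28 to 0.12) and the interaction of Fosl2 (-0.22 to 0.10, and 0.020 without both marker-rich libraries). None of these values that turned was called in the fit of all libraries with TMM and the filter, apart from Junb in LPS+LA against LPS. Of the values turned by total-count scaling, Junb in LPS+LA against LPS and the interaction of Fosl2 were called, as higher and positive, with that scaling. Deviations of same-numbered libraries correlated at -0.50 between control and LPS+HCl, and from -0.05 to 0.05 between the other pairs of groups. Such values cannot tell whether same-numbered samples were made together. With the replicate block, Fosl2 in LPS+LA against LPS+HCl lost its call (0.24) and Maff gained one (0.28), with no other member's call changed. Sites gained or lost within 10 kb numbered 6 for LPS against control, 2 for LA against control, 2 for LPS+LA against LPS and 4 for LPS+LA against LA, and within 100 kb 34 for LPS against control, 17 for LPS+LA against LPS and 26 for LPS+LA against LA, since these windows hold fewer or more sites. With only peaks above the median score of their list LA against control had 5. With 1 ATAC-seq sample left out the counts ran from 21 to 26 for LPS against control, 13 to 17 for LA against control, 9 to 17 for LPS+LA against LPS and 16 to 27 for LPS+LA against LA. These counts could only stay or rise, since fewer samples then had to have or lack a peak. Low counts limit Fosl1 and, in LPS, Fosb, and peak lists set no depth for a missing peak.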

Other observations

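Among the members, log2 CPM over the 10 libraries ran together for some genes, as a description of libraries that share treatments and depth. Fos followed Fosl2 (Pearson's r = 0.982), Fosb (r = 0.934) and Fosl1 (r = 0.934). Junb followed Maff (r = 0.990) and Jund (r = 0.918), and Atf3 followed Batf (r = 0.985). Jun ran against Batf (r = -0.776) and Atf3 (r = -0.753).

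The same lists were counted in the HCl comparison. In LPS+HCl against LPS, 6 of 17 other immediate early genes were higher and 8 lower (82.4% called, against 38.8% of all genes). Of 18 textbook AP-1 target genes, 6 were higher and 9 lower there (83.3% called). With library totals as the scaling these counts were 8 and 6, and 6 and 7. In LPS+LA against LPS+HCl, where 40.9% of all genes were called, 5 target genes were higher and 11 lower (88.9% called, 5 and 9 with library totals). Of 25 MAP kinase cascade genes, 4 were higher and 12 lower there (64.0% called, 6 and 9 with library totals). In LPS+LA against LA, 11 target genes were higher and 3 lower (10 and 3 with library totals), 77.8% against 30.5% of all genes.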
